A study of Mus musculus with 12 samples.

Results

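The beta-catenin destruction complex, its TCF partners and their targets were followed through 19 probe sets of an Affymetrix GeneChip mouse genome array, out of 45101 in the deposited table. The probe sets were chosen by their numbers as those of 8 genes, namely Ctnnb1, Axin2, Apc, Gsk3b, Lef1, Tcf7, Tcf7l2 and Myc. The gene names came with that list of numbers, and they were not checked against an annotation of the array. A probe set is a group of short probes that together read 1 transcript or several related ones.

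Microarrays compared 3 tissues of male FVB mice, an inbred strain, aged 7 to 11 months. Non-transgenic lung came from 4 mice without the transgene. Adjacent normal lung and lung tumor (adenocarcinoma by gross pathology) each had 4 arrays and came from mice with wild-type human cyclin E under the human surfactant protein C promoter. That promoter is known to be active in alveolar type II cells. Adjacent normal lung came from transgenic mice, as the tumors did, and expression of the transgene was not analysed here. Each array held RNA of a whole piece of tissue with all its cell types. The tissue codes in the labels imply a shared mouse for tumor and adjacent lung of equal number, whereas the study describes independent samples. The defining markers of lung and tumor cell types, and those of T lymphocytes and other cells, were not analysed here, because the tables used here do not pair the other probe sets with genes. The tissue labels were therefore not checked against the data.

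Beta-catenin, the product of Ctnnb1, links cadherins to the cytoskeleton and carries the canonical Wnt signal to the nucleus. Without Wnt, a destruction complex of Apc, axin and casein kinase with Gsk3b phosphorylates beta-catenin and marks it for degradation. When Wnt binds its receptors, beta-catenin escapes this control and joins the DNA-bound factors Tcf7, Lef1, Tcf7l1 and Tcf7l2, and genes such as Axin2 and Myc are transcribed. The control of beta-catenin is at the level of protein, and the arrays measured RNA only. In the lung the pathway is known for its part in the development and repair of the epithelium.

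Signals are given as log2 values, as deposited, so that a difference of 1 is a doubling. They were tested with limma in a fit over all 3 groups and 23538 probe sets, those whose signal exceeded the median of the table, 4.18, in 4 arrays or more, and p-values were adjusted over all of them (Benjamini-Hochberg, threshold 0.05). Of the 19 probe sets 17 passed that filter. Apc 1420957_AT and Lef1 1421299_A_AT lay under the median in all 12 arrays and were not tested. Lef1 1454734_AT passed only through the 8 lungs. Tumor 2 and adjacent lung 3 stood apart from their groups. The mean Euclidean distance of tumor 2 to the other tumors over the tested probe sets was 153.9 log2 units, against 96.7 to 102.9 among the rest. For adjacent lung 3 it was 104.7, against 66.2 to 69.8. Array medians were 4.10 to 4.13 for tumors, 4.17 to 4.38 for adjacent lungs and 4.18 to 4.19 for non-transgenic lungs. The mean excess of 3′ over 5′ control probe sets (Gapdh and beta-actin), a sign of RNA integrity, was 0.30 to 0.61, 0.39 to 0.57 and 0.35 to 0.49 log2 units in the same order. Its part in the results was not tested.

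In tumors the TCF factor Tcf7 had the largest fall of the 17 tested probe sets, in 1433471_AT, and Axin2 and 2 of the 4 Gsk3b probe sets were also lower than in adjacent normal lung. Lef1 1454734_AT was also lower than in adjacent normal lung, but it was tested only because the lungs exceeded the filter. The probe set of Myc and 2 of the 3 of Tcf7l2 rose. No probe set of Ctnnb1 or Apc passed the test. In this bulk tissue fewer cells of a type and less RNA per cell cannot be told apart. Against adjacent normal lung, 3 of the 17 tested probe sets were higher in tumors (17.6%, from 2 genes) and 6 were lower (35.3%, from 4 genes). Without that Lef1 probe set 5 of 16 were lower (31.2%, from 3 genes). Over all 23538 probe sets 13.2% were higher and 15.6% lower. The share of lower members depended on the scaling. With each array centred on its median, 4 of 17 were higher and 3 lower, or 2 of 16 without Lef1 (12.5%). Over all 23538 tested probe sets 20.5% were then higher and 13.1% lower. No excess of falls among the members is therefore read from these counts. The median difference of the 17 was 0.08 log2 units, against 0.07 over all tested probe sets, and the median of its size was 0.49 against 0.36. In 3 probe sets all 4 tumors lay above all 4 adjacent lungs, and in 5 all lay below, or in 4 without Lef1. Over all 23538 tested probe sets those shares were 10.4% and 13.0%. The count of 9 fell to 3 without adjacent lung 1, to 4 without adjacent lung 2 and to 5 without either adjacent lung 4 or tumor 4. Calls over all 23538 probe sets fell too, from 6765 to 4636, 5105, 5593 and 4642 without these arrays in turn. With the mouse as a block, in a fit of tumors and adjacent lungs alone, Tcf7 1433471_AT was the 1 member called, against 3282 over all probe sets.

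Against non-transgenic lung the tumors again had 3 higher and 6 lower probe sets of 17. Of all tested probe sets 15.6% were higher and 16.9% lower. The median difference was 0.05 log2 units for the 17 and 0.07 over all tested probe sets. Lower probe sets came from 3 genes here, Axin2, Gsk3b and Tcf7. Both comparisons use the same 4 tumors, so the second is no independent repeat of the first. Without either non-transgenic lung 2 or non-transgenic lung 4 the count of 9 fell to 5. Calls over all tested probe sets fell from 7652 to 5819 and 5764.

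**Figure D1:**
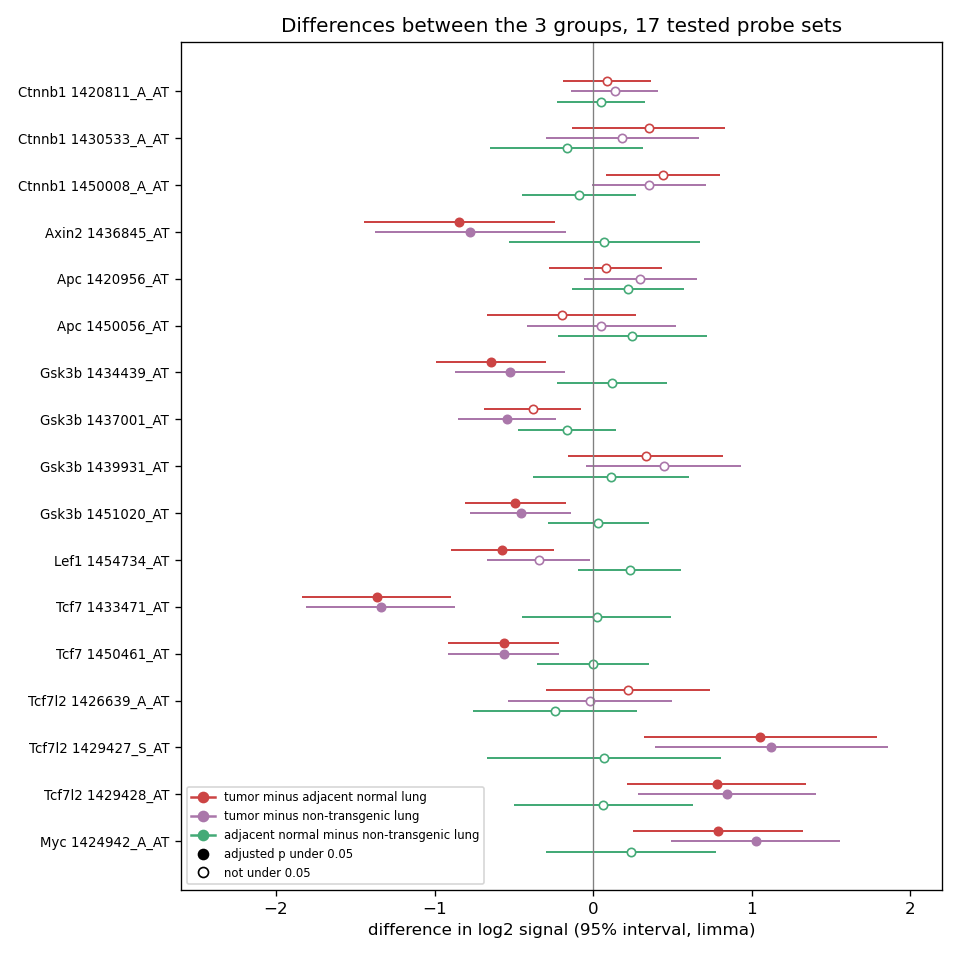
Differences in log2 signal (x axis, with 95% intervals from limma) for the 17 tested probe sets, with tumor minus adjacent normal lung in red, tumor minus non-transgenic lung in purple and adjacent normal minus non-transgenic lung in green. Filled points passed an adjusted p of 0.05. The largest fall is that of Tcf7 1433471_AT (-1.37 against adjacent lung), the largest rise that of Tcf7l2 1429427_S_AT (1.05), and no green point is filled.

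Promoter windows of Tcf7, Axin2, Gsk3b and Lef1 are printed because these genes had probe sets that were lower in tumors than in adjacent lung. The Lef1 probe set was tested only through the lungs. The sequences are those of RefSeq (GRCm38.p6), with 250 bases before and 50 after a transcription start. They were searched on both strands for CTTTGA, 1 form of the core of the sequence that TCF factors bind (TCAAAG on the other strand). Other forms of that core and its flanking bases were not searched. Capitals mark the matches. For Tcf7 the more upstream of 2 listed starts is shown. For Lef1 the one of 4 listed starts that held matches is shown, so it was chosen for holding them. The Tcf7, Axin2 and Lef1 windows lie inside the spans given for their genes (chr11:52246527-52283383, chr11:108917828-108950783 and chr3:131110297-131224357). They surround internal starts, may hold transcribed sequence, and are called promoters only in that sense.
Tcf7 promoter, chr11:52282965-52283264, minus strand: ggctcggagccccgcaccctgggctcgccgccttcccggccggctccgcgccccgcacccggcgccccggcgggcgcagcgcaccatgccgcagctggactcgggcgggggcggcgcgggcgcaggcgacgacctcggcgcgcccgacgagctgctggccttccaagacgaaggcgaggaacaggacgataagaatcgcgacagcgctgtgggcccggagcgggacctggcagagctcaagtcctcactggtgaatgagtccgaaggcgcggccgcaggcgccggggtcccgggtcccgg
Axin2 promoter, chr11:108920099-108920398, plus strand: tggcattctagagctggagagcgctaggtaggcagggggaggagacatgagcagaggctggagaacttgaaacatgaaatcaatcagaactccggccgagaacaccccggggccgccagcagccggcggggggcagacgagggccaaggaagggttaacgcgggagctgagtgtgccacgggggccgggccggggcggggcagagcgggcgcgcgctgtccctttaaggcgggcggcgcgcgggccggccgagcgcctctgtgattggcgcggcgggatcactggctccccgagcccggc
Gsk3b promoter, chr16:38088751-38089050, plus strand: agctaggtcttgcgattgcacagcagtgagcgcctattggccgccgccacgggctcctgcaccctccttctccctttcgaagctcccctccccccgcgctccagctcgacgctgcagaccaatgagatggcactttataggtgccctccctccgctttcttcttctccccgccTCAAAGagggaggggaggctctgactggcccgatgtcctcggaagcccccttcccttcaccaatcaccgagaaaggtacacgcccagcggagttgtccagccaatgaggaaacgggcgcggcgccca
Lef1 promoter, chr3:131156044-131156343, plus strand: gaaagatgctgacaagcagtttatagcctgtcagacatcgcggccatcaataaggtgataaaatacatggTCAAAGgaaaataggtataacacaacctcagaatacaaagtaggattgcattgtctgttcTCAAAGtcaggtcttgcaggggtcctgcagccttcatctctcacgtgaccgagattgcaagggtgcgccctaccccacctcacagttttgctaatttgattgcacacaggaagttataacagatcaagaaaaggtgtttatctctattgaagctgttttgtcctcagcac
The Gsk3b window held 1 match, 77 bases before the start, and the Lef1 window held 2, 180 and 120 bases before it. The Tcf7 and Axin2 windows held none. In all, 2 of the 12 windows listed for 6 of the genes had a match, and 5257 of 32851 windows of the same length in the table did (16.0%). The windows of Ctnnb1 (2 starts), Tcf7l2 (2 starts), the other Tcf7 start and the other Lef1 starts had no match to this 1 form. A match describes these letters and no more.

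Ctnnb1 itself was read by 3 probe sets, none of which passed the test in any comparison. The brightest, 1420811_A_AT, lay between 12.16 and 12.57 in all 12 arrays. Its mean was 12.26 ± 0.08 in non-transgenic lung, 12.31 ± 0.18 in adjacent normal lung and 12.40 ± 0.15 in tumors (SD, n = 4 each). The tumor minus adjacent difference was 0.09 (95% interval -0.19 to 0.36, adjusted p = 0.64). The 3 groups overlapped.

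Ctnnb1 1450008_A_AT measured 10.00, 9.89, 9.93 and 9.84 in non-transgenic lungs 1 to 4, 9.85, 9.72, 9.70 and 10.03 in adjacent lungs 1 to 4 and 10.61, 10.14, 9.84 and 10.47 in tumors 1 to 4. Tumors 1, 2 and 4 lay above all 8 lungs, and tumor 3 lay among them. The tumors were 0.44 above adjacent normal lung (SE 0.17, 95% interval 0.08 to 0.80), which missed the threshold (adjusted p = 0.064). It passed without tumor 2 (0.48, adjusted p = 0.04) or tumor 3 (0.58, adjusted p = 0.021), and with each array centred on its median (0.56, adjusted p = 0.028). Against non-transgenic lung the difference was 0.35 (adjusted p = 0.12), which passed without tumor 3 (0.49, adjusted p = 0.035). The remaining probe set, 1430533_A_AT, ran from 9.0 to 9.59 in the lungs and from 8.92 to 10.18 in tumors, again with tumor 3 lowest and tumor 1 highest. Its tumor minus adjacent difference was 0.35 (SE 0.22, adjusted p = 0.25).

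Within the destruction complex, Apc is the large scaffold that holds beta-catenin and is lost in many colon cancers. Apc 1420956_AT had a mean of 7.88 ± 0.14 in non-transgenic lung, 8.10 ± 0.07 in adjacent normal lung and 8.17 ± 0.34 in tumors. The tumors fell on both sides of the lungs. Tumor 2, at 7.70, was under all 8 lungs, and tumors 1, 3 and 4, at 8.29, 8.20 and 8.51, were above them all. The difference from adjacent normal lung was 0.08 (95% interval -0.28 to 0.43, adjusted p = 0.75). From non-transgenic lung it was 0.30 (adjusted p = 0.18), and 0.46 without tumor 2 (adjusted p = 0.01).

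Apc 1450056_AT spread more widely in tumors, from 5.34 to 6.45, than in the lungs, from 5.51 to 6.11. Its difference from adjacent normal lung was -0.20 (SE 0.22, adjusted p = 0.51) and from non-transgenic lung 0.05 (adjusted p = 0.88). The untested 1420957_AT stayed between 2.18 and 3.20 in all arrays, with means of 2.83, 2.72 and 2.79 in the 3 groups. No direction can be given for Apc.

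Axin2 is a scaffold of the destruction complex and at the same time a target of beta-catenin and TCF, and its RNA is widely used as a readout of the pathway. Axin2 1436845_AT measured 6.64, 6.89, 6.24 and 7.08 in non-transgenic lungs 1 to 4, 7.09, 6.56, 6.69 and 6.79 in adjacent lungs and 6.28, 6.60, 5.34 and 5.54 in tumors. Tumors 3 and 4 lay under all 8 lungs, whereas tumors 1 and 2 lay within their range. Axin2 fell by 0.84 log2 units against adjacent normal lung (SE 0.28, 95% interval -1.45 to -0.24, adjusted p = 0.039), which is 1.80-fold. Against non-transgenic lung it fell by 0.77 (adjusted p = 0.049).

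The Axin2 calls were the least firm of the falls. The adjusted p against adjacent normal lung rose to between 0.052 and 0.11 without any 1 of non-transgenic lungs 1 and 2, adjacent lungs 1 to 4 and tumors 3 and 4, and was 0.088 with the mouse as a block. It was 0.061 with median centring, 0.054 with no filter on low values and 0.0044 without tumor 2 (difference -1.06). Against non-transgenic lung it rose to between 0.051 and 0.14 without any 1 array other than non-transgenic lung 3 and tumor 2, and was 0.066 with median centring and 0.067 with no filter.

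Gsk3b, the kinase that marks beta-catenin for degradation and has many other substrates, was read by 4 probe sets, and they did not move alike. Of them 3 were lower in tumors in at least 1 comparison, and 1439931_AT was not. Gsk3b 1434439_AT measured 5.62, 6.02, 5.48 and 5.88 in non-transgenic lungs 1 to 4, 5.92, 5.81, 6.09 and 5.67 in adjacent lungs and 5.10, 5.32, 5.03 and 5.46 in tumors. All 4 tumors lay under all 8 lungs. It fell by 0.65 against adjacent normal lung (SE 0.16, 95% interval -0.99 to -0.30, 1.56-fold, adjusted p = 0.011) and by 0.53 against non-transgenic lung (adjusted p = 0.025). The first call held without any 1 array (-0.72 to -0.57) but not with the mouse as a block (adjusted p = 0.078). The second rose to an adjusted p of 0.067 to 0.076 without non-transgenic lung 2 or 4 or tumor 1 or 3.

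Gsk3b 1451020_AT measured 7.57, 7.71, 7.32 and 7.50 in non-transgenic lungs 1 to 4, 7.64, 7.66, 7.58 and 7.35 in adjacent lungs and 7.23, 7.29, 6.93 and 6.81 in tumors. Again each tumor was under each lung. The fall was 0.49 against adjacent normal lung (SE 0.15, 1.40-fold, adjusted p = 0.027) and 0.46 against non-transgenic lung (adjusted p = 0.032). Without adjacent lung 1 or 2 or tumor 3 or 4 the first adjusted p was 0.069 to 0.08, with the mouse as a block 0.077 and with median centring 0.07. Without non-transgenic lung 1, 2 or 4 or tumor 3 or 4 the second was 0.061 to 0.093, and with median centring 0.059.

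The brightest Gsk3b probe set, 1437001_AT, had means of 8.67 ± 0.18 in non-transgenic lung, 8.50 ± 0.18 in adjacent normal lung and 8.12 ± 0.16 in tumors. Its 4 tumors, from 8.01 to 8.35, lay under the 4 non-transgenic lungs, from 8.45 to 8.87, and overlapped adjacent lung 3 at 8.25. It fell by 0.54 against non-transgenic lung (adjusted p = 0.013). The difference from adjacent normal lung, -0.38, missed the threshold (adjusted p = 0.062). It passed without adjacent lung 3 (-0.47, adjusted p = 0.03) or tumor 1 (-0.46, adjusted p = 0.047), after renewed quantile normalization (-0.43, adjusted p = 0.027) and with a filter at the 75th percentile (adjusted p = 0.049).

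Gsk3b 1439931_AT was not lower in tumors. It measured 5.30, 5.59, 5.02 and 5.19 in non-transgenic lungs 1 to 4, 5.19, 5.22, 5.67 and 5.48 in adjacent lungs and 5.59, 5.19, 5.76 and 6.34 in tumors. Tumors 3 and 4 lay above all 8 lungs. The difference was 0.33 from adjacent normal lung (SE 0.23, adjusted p = 0.29) and 0.44 from non-transgenic lung (adjusted p = 0.15), which passed without tumor 2 (0.62, adjusted p = 0.026). With tumor 2 and adjacent lung 3 both left out, the former was 0.60 (adjusted p = 0.032).

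Within each array, 1439931_AT minus 1434439_AT was -0.73 to -0.19 log2 units in the 8 lungs and -0.12 to 0.88 in the 4 tumors. The ranges did not overlap. The same probe set minus 1451020_AT was -2.45 to -1.87 in lungs and -2.10 to -0.47 in tumors, with 3 of 4 tumors above all lungs and tumor 2 within their range. Against the brightest probe set, 1437001_AT, it was -3.44 to -2.58 in lungs and -2.91 to -1.67 in tumors, with tumors 3 and 4 above all lungs and tumors 1 and 2 within their range. Across the 12 arrays, each probe set centred on its mean, 1451020_AT ranked 41 and 1434439_AT ranked 1698 among 23537 probe sets by likeness to 1437001_AT (root mean square difference), and 1439931_AT ranked 15650. Probe sets of 1 gene can read different parts or forms of its transcript, and where these 4 lie on Gsk3b was not analysed here.

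**Figure D2:**
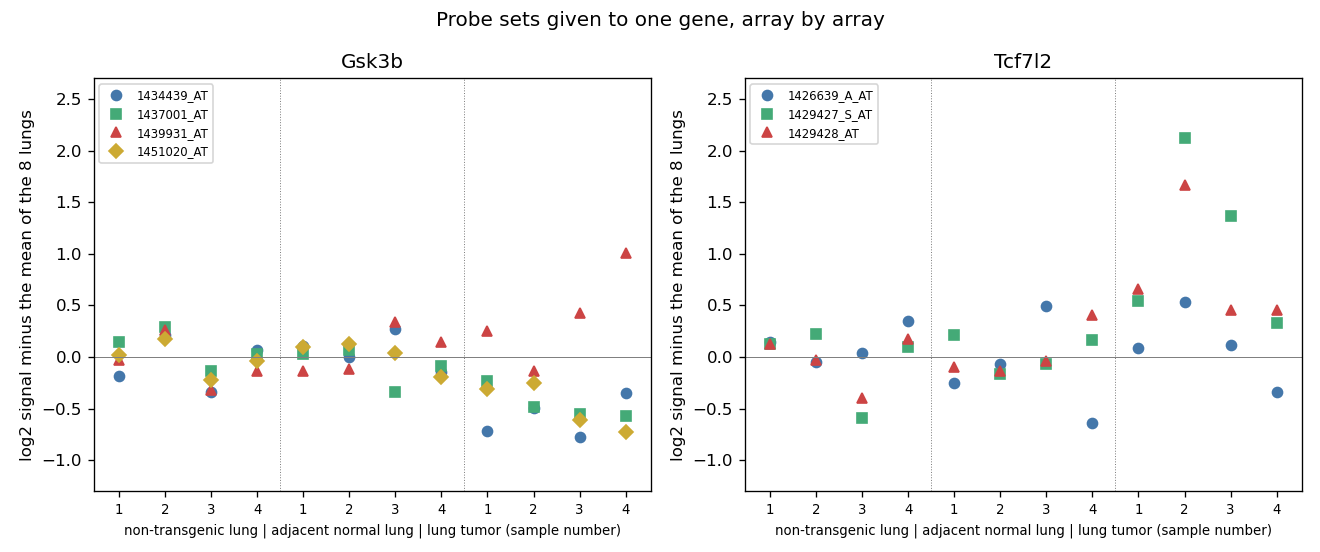
Probe sets of Gsk3b (left) and Tcf7l2 (right) in each of the 12 arrays (x axis), as log2 signal minus the mean of the 8 lungs (y axis). In tumors 3 and 4 1439931_AT parts from the other 3 Gsk3b probe sets beyond the range of the lungs, and in tumor 2 both 1429427_S_AT and 1429428_AT part from 1426639_A_AT.

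Among the TCF factors, Tcf7 (TCF1) is best known from T lymphocytes, where it is needed for their development, and it also acts in Wnt-responsive epithelia. Tcf7 1433471_AT measured 6.18, 6.63, 6.38 and 6.80 in non-transgenic lungs 1 to 4, 6.93, 6.10, 6.52 and 6.53 in adjacent lungs and 4.97, 5.65, 5.07 and 4.93 in tumors. Every tumor lay under every lung, and tumor 2 was the nearest to them. Tcf7 fell by 1.37 log2 units against adjacent normal lung, or 2.58-fold (SE 0.22, 95% interval -1.84 to -0.90, adjusted p = 0.001). It fell by 1.34 against non-transgenic lung, or 2.53-fold (adjusted p = 0.00095). Both calls held without any 1 array (-1.53 to -1.23 and -1.51 to -1.24), and the first held with the mouse as a block (adjusted p = 0.031).

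The dimmer Tcf7 probe set, 1450461_AT, measured 4.49, 4.69, 4.69 and 5.05 in non-transgenic lungs 1 to 4, 4.87, 4.61, 4.57 and 4.87 in adjacent lungs and 4.24, 4.27, 4.33 and 3.82 in tumors. The tumors were again all below the lungs, and tumor 4 was under the table's median. It fell by 0.56 against adjacent normal lung (1.48-fold, adjusted p = 0.022) and by 0.57 against non-transgenic lung (adjusted p = 0.02). The first adjusted p was 0.058 to 0.066 without adjacent lung 1 or 4 or tumor 4, 0.1 with the mouse as a block, 0.061 with median centring and 0.068 after renewed quantile normalization (-0.44). The second was 0.058 to 0.059 without non-transgenic lung 4 or tumor 4. Both Tcf7 probe sets kept the sign of their differences under each scaling tried, and 1433471_AT also its calls. The difference 1433471_AT minus 1450461_AT was 1.50 to 2.07 in the 8 lungs and 0.73 to 1.38 in the tumors.

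Lef1 is a close relative of Tcf7 in lymphocytes and in embryonic epithelia, and 1 of its 2 probe sets lay under the median of the table in all arrays. Lef1 1454734_AT measured 4.27, 4.52, 4.61 and 4.37 in non-transgenic lungs 1 to 4, 4.54, 4.71, 5.06 and 4.39 in adjacent lungs and 4.09, 4.13, 4.16 and 4.02 in tumors. All 8 lungs were above the table's median and all 4 tumors were below it. It fell by 0.57 against adjacent normal lung (SE 0.15, 1.49-fold, adjusted p = 0.015). Since the probe set was tested only because the lungs exceeded the filter, it is no support for the count of 6 lower probe sets. The call held without any 1 array (-0.67 to -0.45) but not with the mouse as a block (adjusted p = 0.07). Against non-transgenic lung the difference was -0.34 (adjusted p = 0.098), and it passed without adjacent lung 3, which changed only the shared spread (adjusted p = 0.042). The untested 1421299_A_AT had means of 2.99 ± 0.15, 3.13 ± 0.37 and 2.76 ± 0.14 in the 3 groups.

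Tcf7l2 (TCF4) is the TCF factor of many epithelia, among them that of the intestine, and is spliced into several forms. In contrast to Tcf7, none of its 3 probe sets was called lower, and 2 rose. Tcf7l2 1429427_S_AT measured 4.75, 4.85, 4.04 and 4.72 in non-transgenic lungs 1 to 4, 4.83, 4.46, 4.56 and 4.79 in adjacent lungs and 5.17, 6.74, 5.99 and 4.95 in tumors. The 4 tumors lay above the 8 lungs, but tumor 4 by only a little and tumor 2 by far. The rise was 1.05 against adjacent normal lung (SE 0.34, 95% interval 0.32 to 1.79, 2.08-fold, adjusted p = 0.036) and 1.12 against non-transgenic lung (adjusted p = 0.025). In Affymetrix naming, the S marks probes shared by several transcripts, so signal of another transcript may enter it.

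Tcf7l2 1429428_AT measured 5.65, 5.49, 5.13 and 5.70 in non-transgenic lungs 1 to 4, 5.42, 5.39, 5.48 and 5.93 in adjacent lungs and 6.18, 7.19, 5.98 and 5.98 in tumors. Here too the tumors were all above the lungs, and tumor 2 was highest. The rise was 0.78 against adjacent normal lung (SE 0.26, 1.71-fold, adjusted p = 0.041) and 0.84 against non-transgenic lung (adjusted p = 0.027). Likeness over the 12 arrays put 1429427_S_AT at rank 233 of 23537 to this probe set.

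Much of the size of both rises came from tumor 2. Without it 1429427_S_AT was 0.71 above adjacent normal lung (adjusted p = 0.04) and 1429428_AT 0.49 (adjusted p = 0.037). With adjacent lung 3 left out as well, the values were 0.68 (adjusted p = 0.063) and 0.47 (adjusted p = 0.057). The mouse as a block gave adjusted p = 0.12 and 0.13, and no filter on low values 0.051 and 0.057. The call of 1429427_S_AT against adjacent normal lung was lost without any 1 adjacent lung or tumor 3 (adjusted p = 0.058 to 0.095). That of 1429428_AT was lost without non-transgenic lung 1, 2 or 4, adjacent lung 1, 2 or 3 or tumor 1 (adjusted p = 0.052 to 0.096). Against non-transgenic lung and without tumor 2 the rises were 0.78 (adjusted p = 0.026) and 0.56 (adjusted p = 0.02). Those calls were lost without non-transgenic lung 3 or tumor 3 for the former (adjusted p = 0.069 to 0.074) and without non-transgenic lung 2 or 3 for the latter (adjusted p = 0.057 to 0.078).

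Tcf7l2 1426639_A_AT did not pass the test. Its means were 4.95 ± 0.17 in non-transgenic lung, 4.71 ± 0.47 in adjacent normal lung and 4.93 ± 0.36 in tumors, and the groups overlapped throughout. The differences were 0.22 (95% interval -0.30 to 0.74, adjusted p = 0.51) and -0.02 (adjusted p = 0.96). Within arrays, 1429427_S_AT minus this probe set was -0.83 to 0.60 in lungs and 0.25 to 1.37 in tumors, with tumors 2 and 3 above all lungs. For 1429428_AT that difference was 0.16 to 1.74 in lungs and 1.04 to 1.82 in tumors, so only tumor 2 exceeded the lungs.

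Of the targets, Myc encodes a transcription factor of growth and proliferation that many signals besides Wnt induce. Myc 1424942_A_AT measured 5.54, 4.66, 5.34 and 5.29 in non-transgenic lungs 1 to 4, 5.12, 5.60, 5.63 and 5.44 in adjacent lungs and 6.69, 6.50, 5.66 and 6.10 in tumors. All tumors were above all lungs, although tumor 3 exceeded adjacent lung 3 by only 0.02. Myc rose by 0.79 against adjacent normal lung (SE 0.25, 95% interval 0.25 to 1.32, 1.73-fold, adjusted p = 0.032) and by 1.03 against non-transgenic lung (2.04-fold, adjusted p = 0.0086). The second call held without any 1 array (0.84 to 1.22). The first was lost without adjacent lung 1, 2 or 4 or tumor 1 or 4 (adjusted p = 0.051 to 0.092) and with the mouse as a block (adjusted p = 0.1). The other target, Axin2, moved the opposite way.

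**Figure D3:**
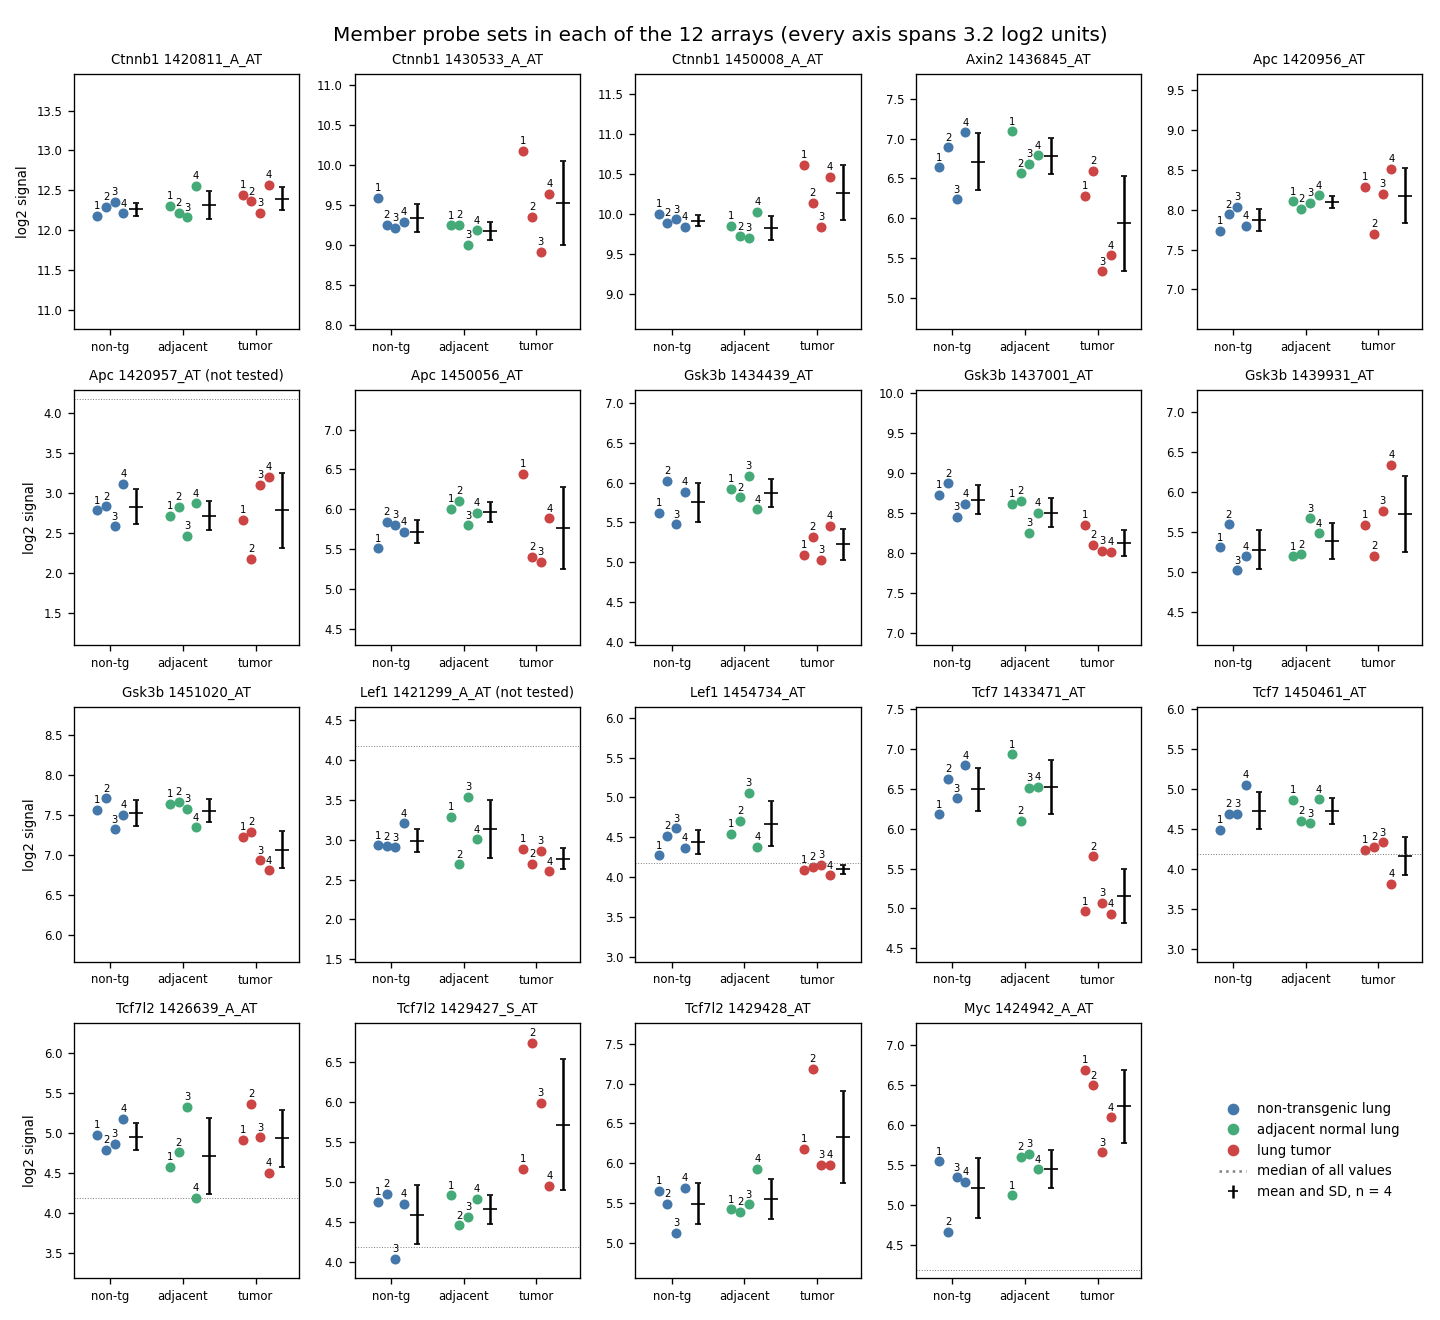
Log2 signal (y axis, every panel spanning 3.2 log2 units) of the 19 probe sets in non-transgenic lung (blue), adjacent normal lung (green) and lung tumor (red), with sample numbers beside the points and bars for mean ± SD (n = 4). The dotted line is the table's median of 4.18. The tumors lie under all lungs for Tcf7, for 2 Gsk3b probe sets and for Lef1 1454734_AT, and above them for Myc and 2 Tcf7l2 probe sets.

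Adjacent normal lung was set against non-transgenic lung to ask whether these genes differed in transgenic mice where no tumor was seen. The transgene and a tumor nearby cannot be told apart in this comparison. None of the 17 probe sets passed limma's test (adjusted p = 1 for each), nor did any of the 23538 (0%). The differences ran from -0.24 for Tcf7l2 1426639_A_AT to 0.25 for Apc 1450056_AT. The median of their size was 0.11, against 0.14 over all tested probe sets. At an unadjusted p under 0.05 limma found 0 of the 17 and 835 of all probe sets. The methods' t-test found 2 of the 17 and 1305 of all, before adjustment. These 2 were both of Apc, 1420956_AT (0.22, unadjusted p = 0.041, adjusted p = 0.86) and 1450056_AT (0.25, unadjusted p = 0.045, adjusted p = 0.86). For Tcf7 1433471_AT the difference was 0.02 (95% interval -0.45 to 0.49), for Axin2 0.07 (-0.53 to 0.67) and for Myc 0.24 (-0.30 to 0.77). Differences inside such intervals remain compatible with the data, so with 4 arrays a group the lack of calls does not show that the groups were equal.

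Taken by sample number, the tumors differed in which genes moved most. Tumor 1 had the largest differences from its adjacent lung for Tcf7 1433471_AT (-1.97) and Myc (1.58), and its Ctnnb1 1430533_A_AT was 0.93 higher. Tumor 2 had the smallest for that Tcf7 probe set (-0.45), none for Axin2 beyond 0.03, and the largest for Tcf7l2 1429427_S_AT (2.29). Tumor 3 combined the largest Axin2 difference (-1.35) and a difference of 1.43 for Tcf7l2 1429427_S_AT with a Myc difference of 0.02. Tumor 4 resembled tumor 3 in Axin2 (-1.25), had a Tcf7 difference of -1.60, and differed by 0.16 and 0.05 in Tcf7l2 1429427_S_AT and 1429428_AT. Tumor 2 was the array that stood apart, at a mean distance of 112.0 log2 units to the 8 lungs against 169.3 to 177.4 for the other tumors. In all 4 numbers both Tcf7 probe sets, Lef1 1454734_AT and 3 Gsk3b probe sets were lower in the tumor, and Myc, 2 Tcf7l2 and 2 Ctnnb1 probe sets were higher. That Lef1 probe set was tested only through the lungs, and Ctnnb1 1420811_A_AT differed by only 0.01 to 0.15. The share of all probe sets with 1 direction in all 4 numbers is not given here, so no excess is read from this. Each number had 8 to 10 of the 19 probe sets higher in the tumor.

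**Figure D4:**
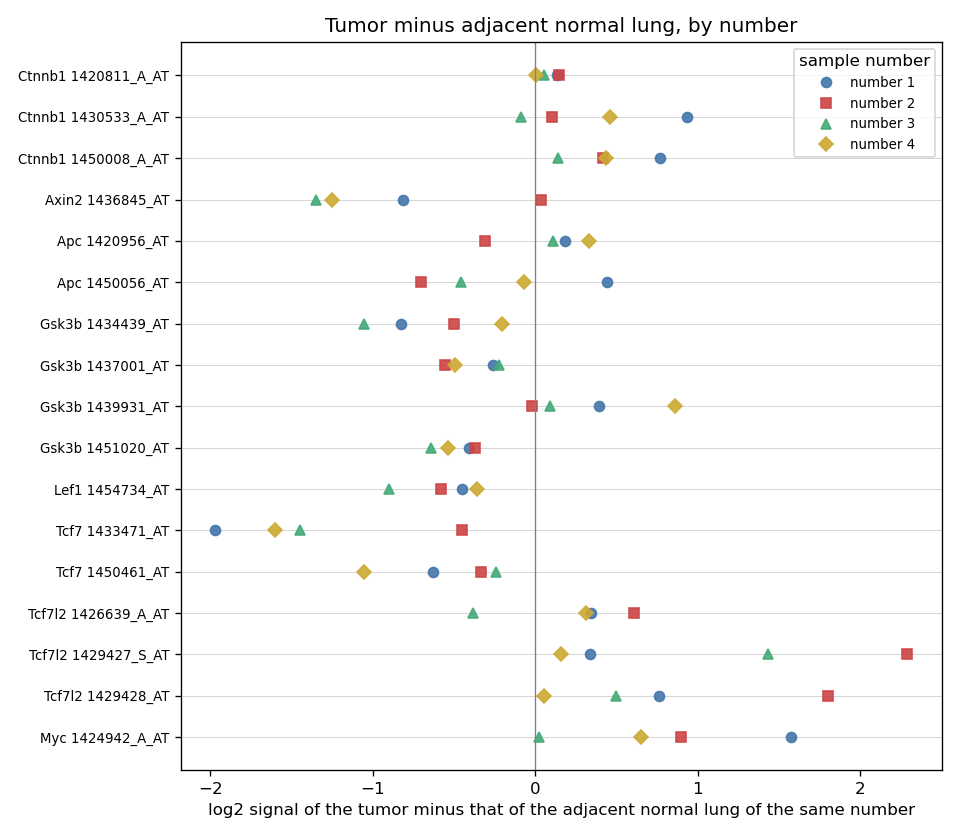
Tumor minus adjacent normal lung in log2 signal (x axis) for the 17 tested probe sets, 1 symbol for each sample number. Tumor 2 (red squares) is farthest right for Tcf7l2 1429427_S_AT (2.29) and near 0 for Axin2 (0.03), where tumors 1, 3 and 4 range from -1.35 to -0.81.

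The tested probe sets whose pattern over the 12 arrays was most like that of Tcf7 1433471_AT were 1435880_AT (root mean square difference 0.16 log2 units, tumor minus adjacent difference -1.42) and 1455101_AT (0.16 and -1.13). Those most like Myc were 1423064_AT (0.22 and 0.71) and 1460675_AT (0.23 and 0.65). The files do not pair these numbers with genes.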

How the data were processed

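The deposited table holds log2 values for each probe set and array that the authors had normalized between arrays. Their methods name Robust Multichip Average with GeneSifter filtering and the submitters' processing notes name GCRMA. Groups and numbers came from the sample titles. From the log2 values, probe sets above the table's median (4.18) in at least 4 arrays were tested, without 64 controls, using limma 3.58.1 in R 4.3.3 (lmFit and eBayes, 3 groups, no block, two-sided) with Benjamini-Hochberg adjustment. The code was tested on simulated data. P-values measure the spread between 4 arrays a group, whose number limits the precision.

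The members and lists were chosen with earlier results of these data known. All 19 probe sets are named, a direction is given for a gene only where all its tested probe sets share it, and the 2 probe sets most like the brightest of a gene were to be named, of which those of Tcf7 and Myc are given. Lists of 78 pathway genes and 77 markers were not analysed here, since no table pairs probe sets with genes.

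Pairing came from the tissue codes in the labels. Deviations from the group means correlated by -0.03, 0.10, 0.07 and 0.11 in numbers 1 to 4. Only tumor 4 correlated best with the adjacent lung of its own number, so the pairing rests on the labels. The alternatives were 12 settings (filters, scaling, spread, blocks, fewer arrays, an unequal-variance t-test with Benjamini-Hochberg adjustment, and tumor 2 with adjacent lung 3 left out), and each array left out. For its arrays the study itself names an analysis of variance.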

Additional observations from a re-analysis of the deposited data

Results flagged for a closer look

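Of 57 sets of 4 arrays (19 probe sets in 3 groups), 3 had an array far from the other three, about as many as chance gives at 1 in 20. Lef1 1421299_A_AT measured 3.21 in non-transgenic lung 4 and 2.90 to 2.93 in the others, all under the table's median. Tcf7l2 1429427_S_AT measured 4.04 in non-transgenic lung 3 and 4.72 to 4.85 in the others. Tcf7l2 1429428_AT measured 7.19 in tumor 2, whereas tumors 1, 3 and 4 had 5.98 to 6.18, and tumor 2 also stood apart over all tested probe sets.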

How the results depend on the processing

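The 9 calls in each comparison of tumors kept their sign under each alternative run, but many lost their side of the threshold. Against adjacent normal lung 9 probe sets were called. Below, the whole table stands for all probe sets tested in the setting named. These were 23538 in the main fit, 45037 with no filter and fewer with the 75th percentile filter. Counts under different filters are therefore not shares of 1 set. With a filter at the 75th percentile, which left 8 of the 19 to test, 4 were called, 3 of the 9 and Gsk3b 1437001_AT. The whole table then had 4069 calls, against 6765 in the main fit. With no filter 6 of the 9 were called, without Axin2 and the 2 of Tcf7l2, and 7046 over the whole table. Of the 9, 4 passed in a fit of the 8 arrays alone (not Axin2, Gsk3b 1451020_AT, Myc and the 2 of Tcf7l2) and 5 with the replicate block over 3 groups. With that block in tumors and adjacent lungs alone 1 passed, and by an unequal-variance t-test 0. Calls over the whole table fell as well, from 6765 to 4331, 6179, 3282 and 591 in the same order. Leaving out 1 array gave 3 to 10, with 3, 4, 5 and 5 without adjacent lungs 1, 2 and 4 and tumor 4. Whole-table calls then ran from 4476 to 10595, with 4636, 5105, 5593 and 4642 without those arrays in turn. Of 9 called against non-transgenic lung, 8 passed with no filter, 4 with the 75th percentile filter, 5 with the 8 arrays compared and 1 by an unequal-variance t-test. Calls over the whole table, 7652 in the main fit, were 8285, 4246, 6324 and 1489 in the same order. Leaving out 1 array gave 5 to 11 members, and 5370 to 11011 over the whole table. With the mouse as a random block both counts stayed at 9, and the whole table had 7182 and 7649 calls. Median centring moved the median of all tested probe sets against adjacent normal lung from 0.07 to 0.18, the calls over the whole table from 3102 higher and 3663 lower to 4837 and 3080, and those of the members from 3 higher and 6 lower to 4 and 3. Against non-transgenic lung it gave 3 and 4 members, and 4755 and 3563 in place of 3678 and 3974. Without tumor 2 and adjacent lung 3 the members called were 9 and 12, and calls over the whole table rose to 11206 and 12304. Adjacent normal against non-transgenic lung had 0 members called in each setting. The cause of these changes was not tested, except that filters change which probe sets are tested and smaller fits have fewer arrays.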
